A study of Homo sapiens with 6 samples.

Results

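The ERBB receptors are membrane tyrosine kinases that bind growth factors of the EGF family. The genes described here are 10 members of this system: the receptors EGFR, ERBB2 and ERBB3, and the ligands AREG, EREG, HBEGF, TGFA, BTC, EPGN and NRG1. They were chosen by gene symbol, as a family, by a rule that uses no measured value, although earlier results of these data were known. All 10 were found among the 23617 symbols of the MDA-MB-231 table, with 39 transcripts, and 6 of them, with 8 transcripts, among the 1854 symbols of the HMLER table. The study examined the effect of decitabine (DAC, 5-aza-2'-deoxycytidine), a cytidine analog that blocks DNA methyltransferases, on gene expression in these human mammary lines. Polyadenylated RNA was sequenced from 6 libraries, each made from pooled extractions. There were 2 libraries of untreated HMLER cells, 2 of DAC-treated HMLER cells, 1 of untreated MDA-MB-231 cells and 1 of DAC-treated MDA-MB-231 cells. Treated cells of both lines received 10 µM DAC renewed daily and were harvested at 72 h, and the untreated cells received none.

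MDA-MB-231 is a line derived from a human breast cancer that lacks hormone receptors. HMLER is a line of human mammary epithelial cells transformed in vitro with telomerase, the SV40 early region and oncogenic HRAS, which its untreated cells carry too. The medium of HMLER, in treated and untreated cells alike, contained added human EGF, hydrocortisone, insulin and puromycin, and that of MDA-MB-231 did not. In 1 label the untreated MDA-MB-231 library bears another cell line number, and its title, which names MDA-MB-231, was followed. In this library the mesenchymal marker VIM stood at 3066 FPKM and CD44 at 212.3 FPKM, while CDH1, ESR1 and PGR were listed at 0. EPCAM and GATA3, also epithelial markers, stood at 7.90 and 0.795 FPKM, and SPARC, a mesenchymal one, at 2.09 FPKM.

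EGF-family ligands are made as precursors anchored in the membrane, and proteases of the ADAM family release them. EGFR binds AREG, EREG, HBEGF, TGFA, BTC, EPGN and EGF itself. ERBB3 and ERBB4 bind the neuregulins, and ERBB2 has no known ligand of its own but pairs with the other receptors. Activated pairs signal through RAS, RAF, MEK and ERK and through PI3K and AKT, and ERK induces immediate early genes as well as inhibitors that turn the signal down.

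Values are FPKM, fragments normalized to transcript length and to a library size set by Cuffdiff, summed over the transcripts of a symbol, so that levels can be compared between genes. In MDA-MB-231, where each condition is 1 library, a gene was called higher or lower when its DAC/untreated ratio was above 2 or under 0.5 and at least 1 library reached 1 FPKM. No replicate stands behind these calls, and p-values are not given. In HMLER each condition has 1 value merged over its 2 libraries, and the table holds only transcripts that rose at least 2-fold and reached 1 FPKM after DAC (lowest ratio 2.001, lowest DAC value 1.003 FPKM), so that every gene in it had to be higher. A gene outside that table may have fallen, stayed or risen less. The tables were normalized separately, and their levels are set side by side only. In MDA-MB-231 the FPKM values summed to 589238 untreated and 480455 after DAC. Their low values fell on whole multiples of 1 fragment, worth 0.02346 FPKM untreated and 0.02361 after DAC per kilobase of transcript less 204 bases. By these units the values held about 43100000 and 35200000 inferred fragments. The 2 libraries were thus divided by nearly the same number, and every DAC/untreated ratio carries the lower sum of the DAC-treated library. The units allowed a 95% Clopper-Pearson interval for each ratio of fragments, which covers counting error only and not the scaling. The median ratio was 0.912, or -0.13 in log2, over the 11292 symbols that reached 1 FPKM in each library.

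The DNA around the start of 4 ligand genes is shown because DAC acts on DNA methylation, which in human cells sits on CG dinucleotides. BTC and AREG had the lowest untreated levels of the 10 genes in MDA-MB-231, HBEGF was lower after DAC in MDA-MB-231 and is listed as higher in HMLER, and EPGN, a neighbour of AREG and BTC, is not listed in HMLER. Each window runs 5′ to 3′ over 300 bases, 250 before and 50 after the RefSeq gene start in GRCh38.p14, with each CG in capitals. They lie at chr4:74794474-74794773 (minus strand) for BTC, chr4:74444886-74445185 (plus strand) for AREG, chr5:140346554-140346853 (minus strand) for HBEGF and chr4:74308220-74308519 (plus strand) for EPGN.
BTC: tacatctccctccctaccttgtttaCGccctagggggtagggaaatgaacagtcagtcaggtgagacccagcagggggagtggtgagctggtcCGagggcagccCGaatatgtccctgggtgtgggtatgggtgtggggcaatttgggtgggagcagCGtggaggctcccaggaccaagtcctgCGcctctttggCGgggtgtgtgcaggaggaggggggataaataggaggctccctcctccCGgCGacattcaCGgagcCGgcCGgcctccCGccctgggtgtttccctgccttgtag
AREG: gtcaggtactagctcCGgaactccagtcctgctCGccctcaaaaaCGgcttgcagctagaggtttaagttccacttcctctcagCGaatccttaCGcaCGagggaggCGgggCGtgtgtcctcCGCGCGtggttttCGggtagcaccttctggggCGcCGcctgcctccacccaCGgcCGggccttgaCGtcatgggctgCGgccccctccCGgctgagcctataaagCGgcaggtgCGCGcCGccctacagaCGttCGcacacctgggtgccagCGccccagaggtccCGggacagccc
HBEGF: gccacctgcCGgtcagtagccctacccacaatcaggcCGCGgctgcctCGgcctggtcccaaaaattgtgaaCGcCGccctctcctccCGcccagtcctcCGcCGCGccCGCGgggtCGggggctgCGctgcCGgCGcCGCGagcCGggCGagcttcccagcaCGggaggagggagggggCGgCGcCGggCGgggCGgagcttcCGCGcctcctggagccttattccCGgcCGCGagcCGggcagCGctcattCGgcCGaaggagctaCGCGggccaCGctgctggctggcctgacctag
EPGN: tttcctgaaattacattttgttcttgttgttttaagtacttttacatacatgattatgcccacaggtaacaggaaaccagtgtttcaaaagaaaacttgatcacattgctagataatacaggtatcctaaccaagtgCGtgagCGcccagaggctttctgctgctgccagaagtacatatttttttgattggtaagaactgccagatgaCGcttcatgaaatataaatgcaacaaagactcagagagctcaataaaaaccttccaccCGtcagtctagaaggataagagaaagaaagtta
HBEGF held 38 CG in this window, AREG 27, BTC 12 and EPGN 4. Across all 34943 windows of this length the median was 14, with quartiles of 4 and 28, and 96.0% held at least 1 CG. More CG than in HBEGF were found in 8.71% of windows, more than in AREG in 26.1%, more than in BTC in 51.6% and more than in EPGN in 70.3%. Of the other members with a window, EGFR held 33, TGFA 30, ERBB2 24 and EREG 12. The ratio of observed to expected CG was lowest for EPGN (0.376) and BTC (0.416) and highest for HBEGF (0.902), beside a median of 0.577. The methylation of these windows was not analysed here. ERBB3 and NRG1 are named without a window.

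In MDA-MB-231, ERBB3 and BTC were called higher after DAC and none of the members was called lower. This is 2 of the 9 members that reached 1 FPKM in at least 1 library, where 10.8% of the 12525 symbols at that level were called higher, and 0 of 9 lower, where the background was 4.82%. ERBB3 and BTC passed the filter only through the DAC-treated library, so that they had to differ, and with 1 FPKM required in both libraries, or 5 FPKM in at least 1, 0 members were called higher. The count of 2 is therefore a description. AREG, at 0.776 FPKM after DAC, did not reach the filter. Of the 9, the ratio was above 1 for 6 and under 1 for 3 (EGFR, HBEGF and NRG1). Of the 12525 symbols it was above 1 for 5401 and under 1 for 7124. ERBB3 and BTC, among the 6, had to lie above 1 by the filter. The median log2 change of the 9, with 1 FPKM added to each value, was 0.12, and that of all 12525 symbols was -0.08. In HMLER 6 of the 10 members are listed as higher, namely ERBB3, AREG, HBEGF, TGFA, BTC and NRG1, where 7.85% of all MDA-MB-231 symbols are listed and 10.9% of those at 1 FPKM or more in MDA-MB-231. ERBB3 and BTC met both conditions, which 3.66% of the 12525 symbols did, and with either stricter filter 0 members did. For ERBB3 and for TGFA the HMLER listing rests on a single one of 2 transcripts, and for NRG1 on a part of its 17. No member was listed in HMLER and called lower in MDA-MB-231, which 0.248% did.

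**Figure D1:**
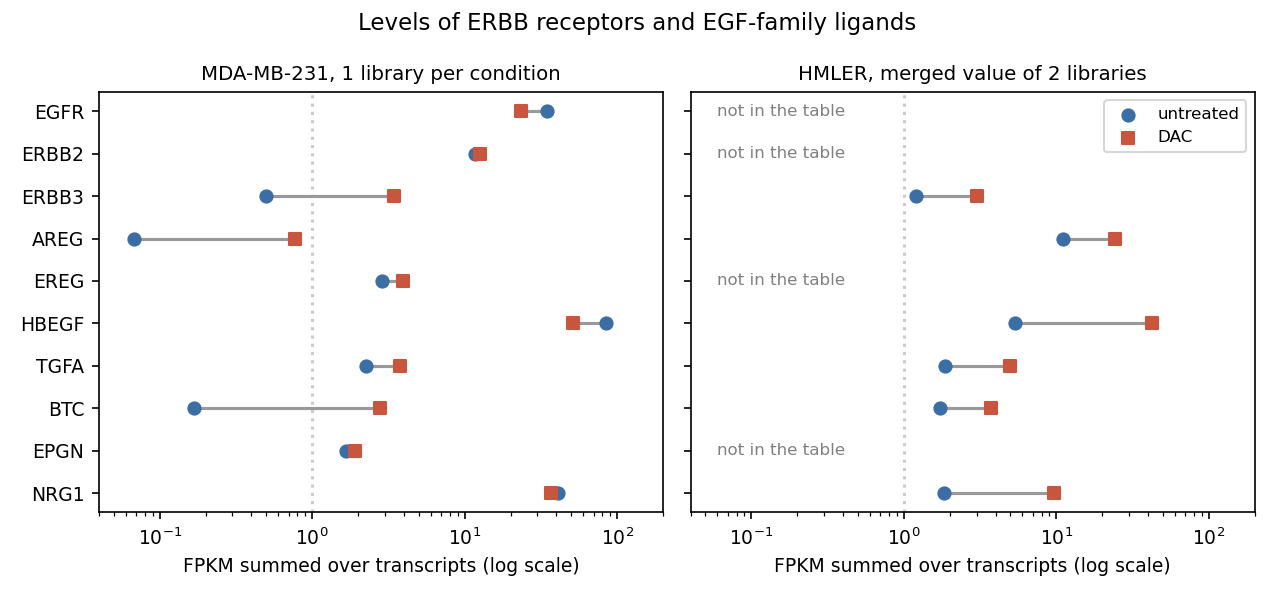
Summed FPKM (log axis) of the 10 members before (circles) and after DAC (squares) in MDA-MB-231 (1 library per condition) and HMLER (1 merged value per condition, listed transcripts only); the dotted line marks 1 FPKM. In MDA-MB-231 the spread from AREG to HBEGF narrowed after DAC, with AREG going from 0.0681 to 0.776 and HBEGF from 84.5 to 51.2 FPKM. The 6 members in the HMLER table had to lie higher after DAC, since it holds only transcripts that rose at least 2-fold.

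The untreated MDA-MB-231 library had HBEGF highest at 84.5 FPKM, followed by NRG1 at 40.8 and EGFR at 34.7. ERBB2 followed at 11.8, EREG at 2.89, TGFA at 2.27 and EPGN at 1.67 FPKM, and ERBB3, BTC and AREG stood under 1 FPKM. Cuffdiff gives each transcript a lower and an upper bound, and for the largest transcript of each member these bounds overlapped in 7 of the 9 neighbouring pairs of this order. HBEGF and NRG1, and EGFR and ERBB2, were the pairs without overlap. After DAC the order began with the same 6 genes, ERBB3 and BTC came to stand above EPGN, and the bounds of all 9 neighbouring pairs overlapped. The summed level of the 3 receptors was 46.9 FPKM untreated and 39.5 after DAC, and that of the 7 ligands was 132.4 and 101.1 FPKM.

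EGFR, the receptor of most of these ligands (hg19, chr7:55086725-55275031, plus strand), stood at 34.7 FPKM in the untreated library of MDA-MB-231 and at 23.4 FPKM in the treated one. The ratio was 0.674, or 0.673 in fragments (interval 0.650 to 0.697, from 7969 and 5330 fragments), a log2 change of -0.55. This is a lower level in the DAC-treated library that stayed short of the 2-fold threshold. The transcript NM_005228, which encodes the full-length receptor, made up 99.7% of the EGFR level untreated and 99.5% after DAC, and its bounds of 19.0 to 50.2 and 12.7 to 33.8 FPKM overlapped. EGFR is not listed in HMLER.

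ERBB2, the receptor that pairs with the others and is amplified in a class of breast cancers (chr17:37844393-37884915, plus strand), was at 11.8 FPKM untreated and 12.7 FPKM after DAC. Its ratio of 1.08 (1.02 to 1.15 in fragments) was the closest to 1 of the 3 receptors. Of its transcripts NM_004448 went from 10.1 to 10.7 FPKM and NM_001005862 from 1.70 to 2.02 FPKM, so that neither passed the threshold. ERBB2 is not listed in HMLER.

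ERBB3, a neuregulin receptor whose own kinase is weak (chr12:56473809-56497291, plus strand), rose from 0.496 FPKM untreated to 3.43 FPKM after DAC in MDA-MB-231. The ratio was 6.91 and the log2 change 1.57. Counted in fragments the rise was from 41 to 462, a ratio of 11.3 (interval 8.23 to 16.01). The measures differ because the table splits ERBB3 into transcripts of 5757 and 1050 bases, and each fragment adds more FPKM to the short one. The long transcript NM_001982, which encodes the complete receptor, was at 0.115 FPKM untreated, with bounds of 0 and 0.339, and at 1.70 after DAC, with bounds of 0.326 and 3.08, an overlap of little width. The short transcript NM_001005915 was at 0.381 FPKM untreated (between 0 and 1.42) and at 1.73 after DAC (between 0 and 5.28). In HMLER only this short transcript is listed, at 1.20 FPKM untreated and 3.005 FPKM after DAC, a ratio of 2.50.

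With EGFR down to 0.674 of its level and ERBB3 at 6.91 times its level, EGFR remained the most abundant of the receptors in both libraries. ERBB4, the other neuregulin receptor, was near 0, at 0.0221 FPKM untreated and 0.0202 after DAC.

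HBEGF, a heparin-binding ligand of EGFR and ERBB4 (chr5:139712428-139726188, minus strand), was the most abundant member in MDA-MB-231 in both conditions. It stood at 84.5 FPKM untreated (bounds 46.2 to 122.8) and at 51.2 FPKM after DAC (bounds 28.1 to 74.3). The DAC-treated library was 1.65-fold lower, with a ratio of 0.606 (0.584 to 0.629, from 7760 and 4673 fragments), which did not pass the 2-fold threshold. In HMLER the same transcript, NM_001945, went from 5.35 to 42.3 FPKM, a ratio of 7.89, the largest of the 8 member transcripts listed. A larger ratio was found for 458 of the 2009 listed transcripts. Untreated, the HBEGF level was thus 84.5 FPKM in MDA-MB-231 beside 5.35 FPKM in HMLER, and after DAC it was 51.2 beside 42.3 FPKM, on separately normalized tables.

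NRG1 is a ligand of ERBB3 and ERBB4. In MDA-MB-231 its 17 transcripts summed to 40.8 FPKM untreated and 36.7 FPKM after DAC, a ratio of 0.900 and of 0.873 in fragments (0.829 to 0.919). The main transcript NM_013958 differed little, at 24.1 FPKM untreated (bounds 8.51 to 39.7) and 24.6 after DAC (bounds 9.62 to 39.6), so that its share of NRG1 went from 59.0% to 67.0%. With this transcript alone the log2 change was 0.03 in place of -0.15. The next 3 transcripts by level had lower values after DAC. NM_001159996 went from 11.5 to 9.71 FPKM, NM_001160008 from 2.89 to 1.54 and NM_001159999 from 2.07 to 0.520, the last a ratio of 0.252 with bounds that overlapped. NM_013959 was listed at 0 untreated and at 0.172 FPKM after DAC. In HMLER 3 NRG1 transcripts are listed, together 1.84 FPKM untreated and 9.66 after DAC, a ratio of 5.24. Of these NM_013958 went from 1.09 to 6.43 FPKM, NM_001159999 from 0.567 to 1.98 and NM_001160008 from 0.189 to 1.25 FPKM. The same 3 transcripts summed in MDA-MB-231 to 29.04 FPKM untreated and 26.7 after DAC, a ratio of 0.918. The NRG1 level of HMLER beyond these 3 is not known.

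TGFA, a ligand of EGFR (chr2:70674412-70781147, minus strand), was at 2.27 FPKM untreated and 3.75 FPKM after DAC in MDA-MB-231. The ratio of 1.65 (1.46 to 1.88, from 397 and 653 fragments) stayed under the threshold. In HMLER its transcript NM_003236 is listed at 1.86 FPKM untreated and 4.93 after DAC, a ratio of 2.65. The other TGFA transcript is not in that table, so the TGFA level in HMLER is not known. The table of MDA-MB-231 assigned TGFA to different transcripts in its 2 libraries. In the untreated library 99.96% of TGFA was given to NM_001099691, at 2.27 FPKM (bounds 0.449 to 4.09), and NM_003236 stood at 0.000828 FPKM. After DAC 99.97% was given to NM_003236, at 3.75 FPKM (bounds 1.26 to 6.25), and NM_001099691 stood at 0.00118 FPKM. TGFA was the 1 member whose largest transcript was more than 2-fold higher with bounds that did not overlap, which 1.06% of 12396 symbols met, and none was lower by that measure, which 0.379% were. These transcripts, of 4310 and 4307 bases, differ by 3 bases at the start of exon 3 of 6, so that only fragments over that junction can tell them apart. The site is shown for this reason, read on the minus strand of GRCh37 at chr2:70692852-70692881, with 13 bases of intron, the 3 bases that only the longer transcript keeps in capitals, and the exon that both share.
TGFA exon 3 start: ttcctctccccagCAGacccgcccgtggct
The fragments over this junction were not counted here, and the sum of both transcripts is the value used for TGFA.

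**Figure D2:**
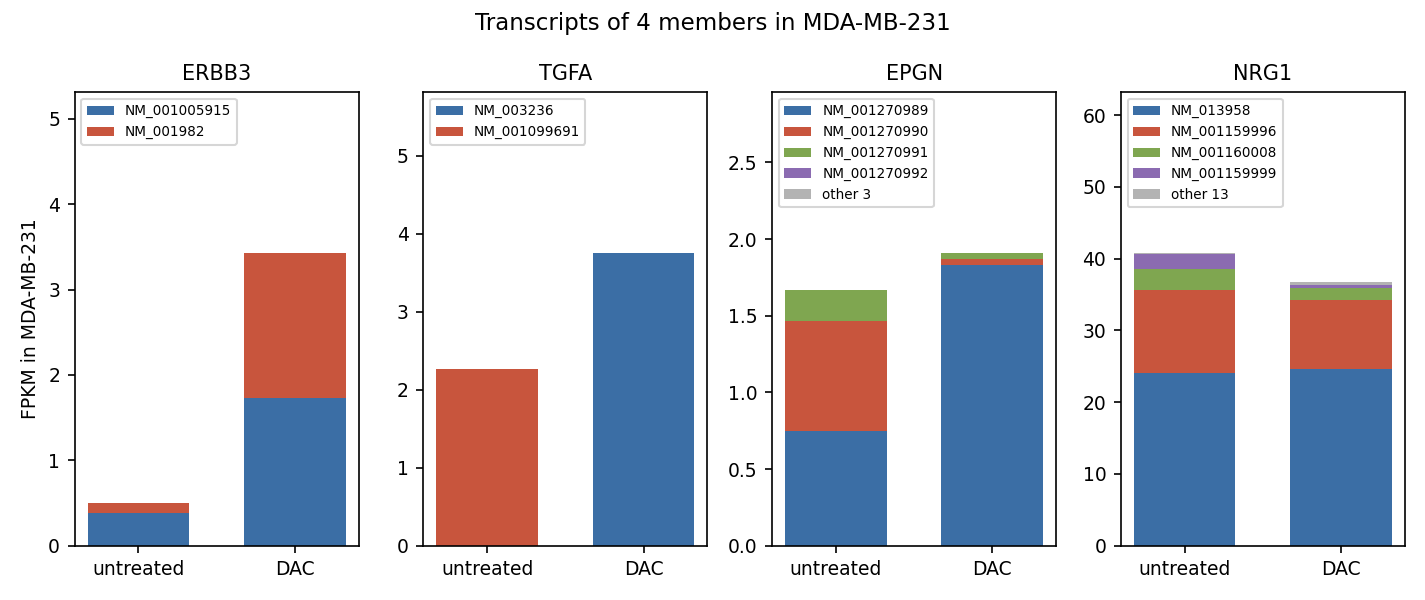
Stacked FPKM (linear axes that start at 0, a scale for each gene) of the transcripts of ERBB3, TGFA, EPGN and NRG1 in the untreated and the DAC-treated MDA-MB-231 library, 1 library each. The summed height of TGFA and EPGN differs less than their split into transcripts, TGFA going from 99.96% of 1 transcript to 99.97% of the other, while NM_013958 makes up most of NRG1 in both libraries.

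BTC (betacellulin), a ligand of EGFR and ERBB4 (chr4:75671448-75719882, minus strand), rose in MDA-MB-231 from 0.168 FPKM untreated to 2.81 FPKM after DAC. This was the largest change of the 10 members, a ratio of 16.7 (8.25 to 39.6, from 8 and 133 fragments) and a log2 change of 1.70. Its transcript is the only one of the symbol, and Cuffdiff's bounds of 0 to 0.504 and 0 to 6.69 FPKM overlapped. In HMLER it went from 1.73 to 3.72 FPKM, a ratio of 2.15, near the lower limit of that table. After DAC the level of BTC was 2.81 FPKM in MDA-MB-231 beside 3.72 FPKM in HMLER.

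AREG (amphiregulin), an EGFR ligand of mammary epithelium, was the member with the lowest level in MDA-MB-231. It went from 0.0681 FPKM, or 3 fragments, to 0.776 FPKM, or 34 fragments, a ratio of 11.4 with an interval of 3.59 to 58.0. Both values lie under 1 FPKM, so AREG was not called. In HMLER AREG stood at 10.99 FPKM untreated and 24.4 FPKM after DAC, a ratio of 2.22. This was the highest untreated value of the 8 listed member transcripts. The untreated totals of members with unlisted transcripts are not known. The hg19 table holds AREG at 2 places of chromosome 4, at 75310853 to 75320726 and at 75480629 to 75490485. These stretches are identical at 9841 of 9880 aligned positions (99.6%). All fragments of AREG were given to the former and the latter is listed at 0 in both libraries, so the split between the copies, and with it the level of AREG, is uncertain.

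EREG (epiregulin), a ligand of EGFR and ERBB4 (hg19, chr4:75230860-75254477, plus strand), was at 2.89 FPKM untreated (bounds 0.835 to 4.94) and 3.94 FPKM after DAC (bounds 1.35 to 6.53). Its ratio was 1.36 (1.22 to 1.53, from 545 and 738 fragments). EPGN (epigen), a ligand of EGFR (chr4:75174187-75182520, plus strand), was at 1.67 FPKM untreated and 1.91 FPKM after DAC, a ratio of 1.14. The interval of its ratio in fragments, 0.955 to 1.45, includes 1. Neither gene passed the threshold or is listed in HMLER. As for TGFA, the split of EPGN into transcripts differed more than its sum. NM_001270989 made up 44.8% of EPGN untreated (0.747 FPKM) and 96.0% after DAC (1.83 FPKM), and NM_001270990 43.1% (0.719 FPKM) and 1.80% (0.0344 FPKM), with bounds that overlapped for each.

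**Figure D3:**
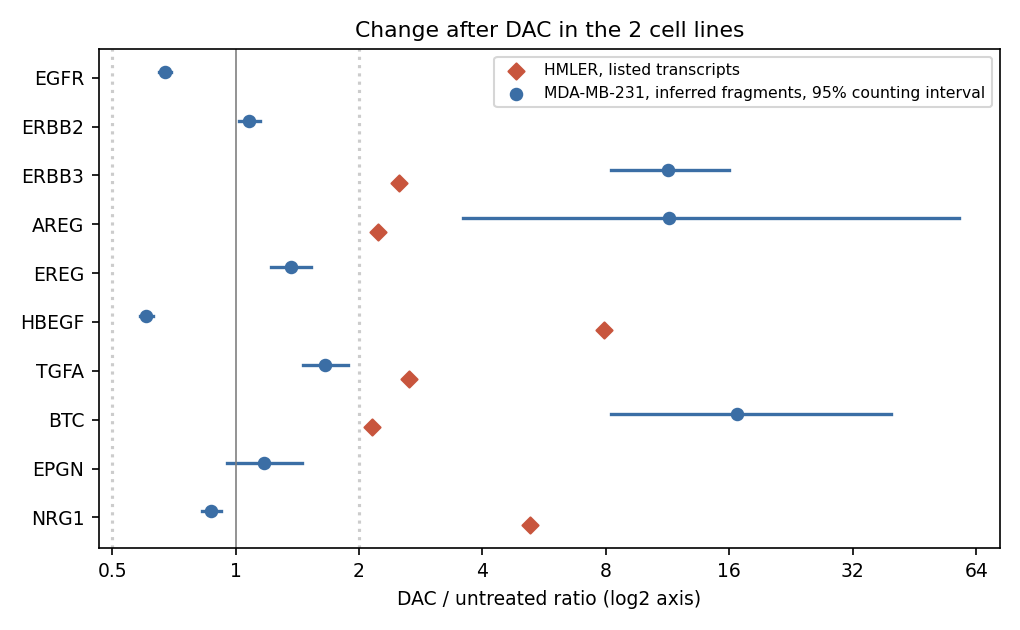
DAC/untreated ratio (log2 axis) of the 10 members: circles with lines give the ratio of inferred fragments in MDA-MB-231 with its 95% counting interval, diamonds the ratio of the listed transcripts in HMLER, and dotted lines the 2-fold thresholds. In MDA-MB-231 ERBB3, AREG, TGFA and BTC lie to the right of 1, while HBEGF (0.606) and NRG1 (0.873) lie to its left. All HMLER diamonds had to lie to the right, since only transcripts that rose are listed (7.89 for HBEGF and 5.24 for NRG1). For ERBB3, TGFA and NRG1 the diamond covers only a part of the transcripts, and the circle covers their sum.

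Set side by side, 4 of the 6 members in the HMLER table had a ratio above 1 in MDA-MB-231 and 2, HBEGF and NRG1, had a ratio under 1. Of the 1362 symbols listed in HMLER that reached 1 FPKM in MDA-MB-231, 25.6% had a ratio under 1 there and 33.7% were called higher. AREG did not reach 1 FPKM and is not among these symbols. ERBB3 and BTC reached it only after DAC, so that their ratios had to be above 1. HBEGF, the highest ligand of untreated MDA-MB-231 cells at 84.5 FPKM, stood at 5.35 FPKM in untreated HMLER cells. For NRG1 the 3 transcripts listed in HMLER stood at 29.04 FPKM in untreated MDA-MB-231 cells and at 1.84 FPKM in untreated HMLER cells. AREG and BTC, under 1 FPKM in untreated MDA-MB-231 cells, stood at 10.99 and 1.73 FPKM in untreated HMLER cells. Divided by the median ratio of the 11292 symbols that reached 1 FPKM in each library, the MDA-MB-231 ratio became 0.664 for HBEGF and 0.987 for NRG1. The FPKM sums of the libraries (589238 untreated and 480455 after DAC) differ more than this median. Scaling by them was not tried, so the side of 1 on which NRG1 lies is not settled. The difference between the lines was not tested, since neither table has values per replicate. By the log2 changes in the 2 comparisons, the 3 symbols nearest to ERBB3 of the 1853 in both tables were NANOS1, ADORA2A and LAT. These 3 had log2 changes of 1.58, 1.56 and 1.59 in MDA-MB-231 and 0.80, 0.93 and 0.97 in HMLER, beside 1.57 and 0.86 for ERBB3. This likeness rests on 2 comparisons only. For ERBB3 the MDA-MB-231 value is the sum of its transcripts and the HMLER value is the short transcript alone, so the measures are unlike.

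The ligand genes EPGN, EREG, AREG and BTC lie next to each other on chromosome 4, in 545.7 kb (hg19, chr4:75174187-75719882) that hold no other symbol of the table. Along this stretch the log2 change in MDA-MB-231 was 0.12 for EPGN, 0.34 for EREG, 0.73 for AREG and 1.70 for BTC. The 1 FPKM added to each value understates low genes, and the ratios were 11.4 for AREG and 16.7 for BTC. AREG rests on 3 and 34 fragments, and the interval for EPGN includes 1. Of these 4 genes AREG and BTC are listed in HMLER, where 7.85% of all MDA-MB-231 symbols are listed. Within 500 kb on either side lie 11 other symbols, of which 4 reached 1 FPKM in MDA-MB-231. PARM1, beyond BTC, rose from 0.677 to 2.92 FPKM, and MTHFD2L, beyond EPGN, went from 2.61 to 1.35 FPKM, a change short of 2-fold. Beyond MTHFD2L lies a group of chemokine genes, of which CXCL1, CXCL3, CXCL5 and CXCL6 are listed in HMLER. They are 4 of the 11 other symbols, beside the same 7.85% of all symbols. In MDA-MB-231 CXCL1 went from 3.74 to 6.61 FPKM and CXCL3 rose from 0.346 to 1.17 FPKM. PARM1 and CXCL3 reached 1 FPKM only after DAC, so that their values had to rise. Whether neighbouring genes changed together was not tested.

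**Figure D4:**
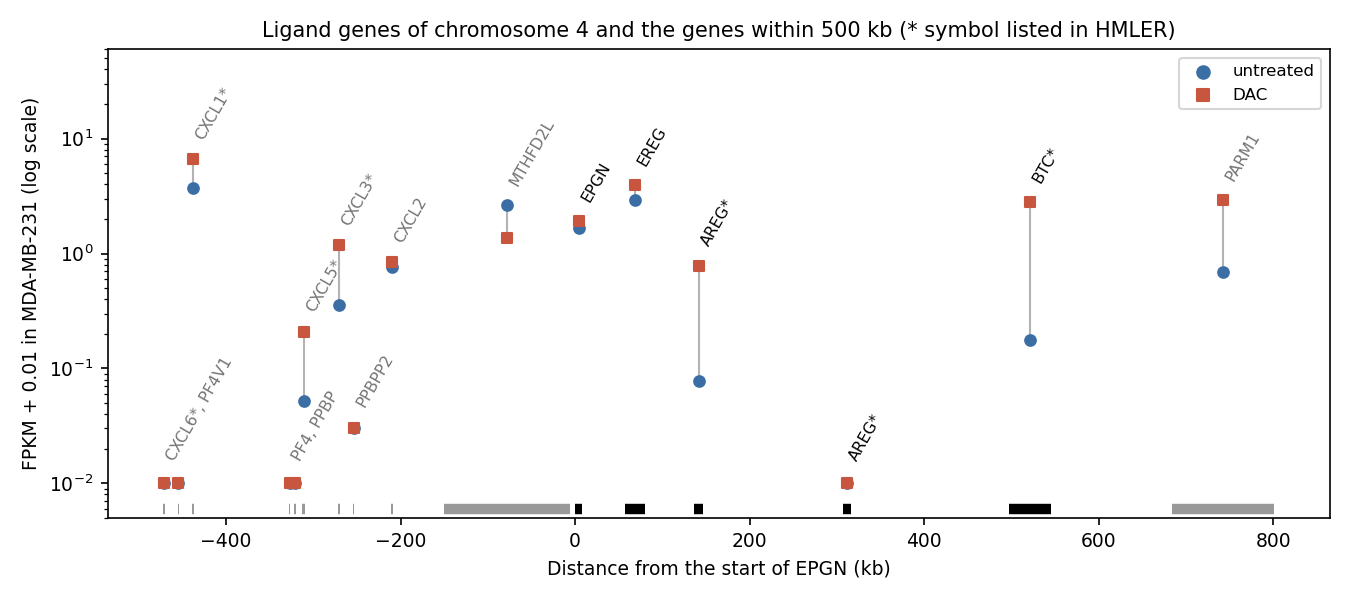
FPKM plus 0.01 (log axis) in untreated (circles) and DAC-treated (squares) MDA-MB-231 cells against the distance from the start of EPGN in kb, with bars at the bottom for the extent of each gene, black for members. All 4 ligand genes lie higher after DAC, least for EPGN and most for BTC, and the second copy of AREG is listed at 0. The interval of the EPGN ratio in fragments, 0.955 to 1.45, includes 1, and AREG rests on 3 and 34 fragments.

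Of the 5 remaining genes of the family, none reached 1 FPKM in MDA-MB-231 and none is listed in HMLER. EGF was at 0.0134 FPKM untreated and 0.0270 after DAC, or 3 and 6 fragments. NRG2 went from 0.393 to 0.216 FPKM (62 and 34 fragments) and NRG4 from 0.0831 to 0.143 FPKM, while NRG3 was listed at 0 untreated and at 0.0225 FPKM, or 3 fragments, after DAC. The level of the family in MDA-MB-231 was therefore made up by the 10 members.

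The genes that act around the receptors were taken as 4 lists by role, 68 genes in all, of which 63 reached 1 FPKM in MDA-MB-231. Among these, 4 were called higher and 3 lower, where 10.8% and 4.82% of all symbols were called, and 7 are listed in HMLER, where 10.9% of all symbols at that level are. Their median log2 change was -0.22, beside -0.08 for all symbols and 0.12 for the members. Of the members, ERBB3 and BTC passed the filter only through the DAC-treated library and had to be higher. Of the 8 genes of ligand shedding, 6 reached 1 FPKM, none was called and none is listed in HMLER. ADAM10, a protease that releases EGF-family ligands, was the highest of them, at 41.2 FPKM untreated and 25.3 after DAC, a ratio of 0.614. ADAM17, the main protease for AREG, TGFA and HBEGF, was at 14.6 FPKM untreated and 14.7 after DAC. Of the 23 genes of signal relay, 22 reached 1 FPKM and 1 was called: SRC, a tyrosine kinase, rose from 7.43 to 19.2 FPKM. The relay gene with the highest level, the kinase AKT1, went from 116.8 to 78.5 FPKM, and none of the 23 is listed in HMLER.

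All 20 feedback inhibitors reached 1 FPKM, with a median log2 change of -0.23 and 1 call, where 10.8% of all symbols were called higher and 4.82% lower. SOCS3, an inhibitor of cytokine and receptor signaling, fell 4.68-fold from 40.5 to 8.66 FPKM. ERRFI1, which binds and inhibits EGFR, was the highest at 103.7 FPKM untreated and 106.1 after DAC. In HMLER 4 inhibitors of this list are listed as higher, where 10.9% of symbols at 1 FPKM or more in MDA-MB-231 are listed. All 4 had a summed ratio under 1 in MDA-MB-231, where 25.6% of listed symbols did, but that of SPRED2 became 1.07 after division by the median ratio. DUSP5, a phosphatase that acts on ERK, went from 20.02 to 70.7 FPKM in HMLER and from 62.3 to 43.997 in MDA-MB-231. SPRED2, an inhibitor of RAS signaling, went from 3.13 to 12.7 FPKM in HMLER and from 32.4 to 31.5 in MDA-MB-231. The others were SPRY4 (0.783 to 2.20 FPKM in HMLER and 36.2 to 20.7 in MDA-MB-231) and SOCS5 (1.51 to 3.66 and 9.33 to 8.16 FPKM). For SPRY4, SPRED2 and SOCS5 the transcripts listed in HMLER are a minor share of the gene in MDA-MB-231, and taken alone they had ratios of 1.15, 1.94 and 1.69 there.

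Of the 17 genes that ERK induces, 15 reached 1 FPKM, 3 were called higher and 2 lower, where 10.8% and 4.82% of all symbols were called. In HMLER 3 are listed, where 10.9% of symbols at 1 FPKM or more in MDA-MB-231 are. The immediate early transcription factors EGR1, FOS and JUNB rose, EGR1 from 17.9 to 113.3 FPKM, FOS from 2.64 to 14.1 and JUNB from 8.95 to 35.3. FOSL1, also an AP-1 subunit, fell 2.95-fold from 279.6 to 94.8 FPKM, and EMP1, a membrane protein, fell 2.32-fold from 175.7 to 75.7 FPKM. In HMLER FOS is listed at 4.81 FPKM untreated and 15.5 after DAC. The transcription factor ETV4 (1.05 to 3.59 FPKM) and the urokinase receptor PLAUR (26.2 to 52.5 FPKM) are also listed there, and in MDA-MB-231 they went from 37.2 to 47.5 and from 98.8 to 107.5 FPKM. The targets thus moved in both directions in MDA-MB-231, with a median log2 change of -0.22.

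**Figure D5:**
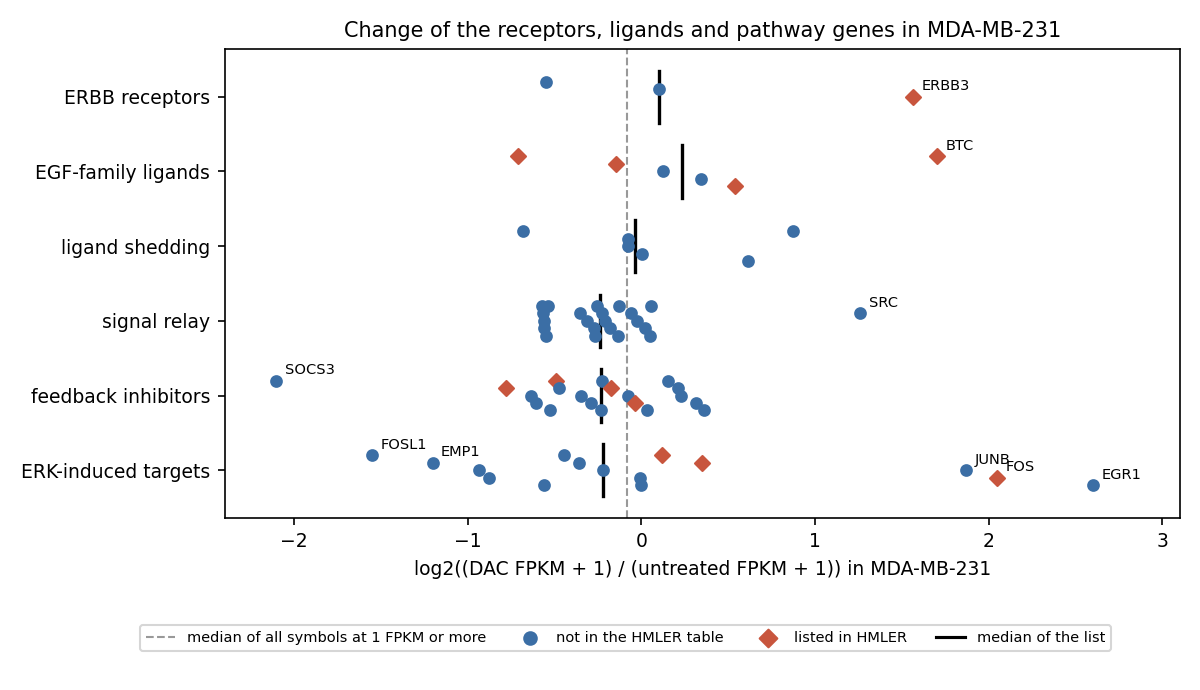
Log2 change, with 1 FPKM added to each value, of the receptors, the ligands and the 4 pathway lists in MDA-MB-231 (genes that reached 1 FPKM in at least 1 library; diamonds are listed in HMLER, black bars are list medians, the dashed line is the median of all symbols). The medians of receptors (0.10) and ligands (0.23) lie to the right of the dashed line at -0.08. Those of signal relay, feedback inhibitors and ERK-induced targets lie to its left, with named genes past the 2-fold threshold on both sides. ERBB3 and BTC passed the filter only through the DAC-treated library, so that they had to lie to the right. The median of the 3 receptors is the value of ERBB2.

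In these bulk libraries fewer cells of a type and less RNA per cell cannot be told apart. Markers of other states moved between the MDA-MB-231 libraries alongside ERBB3 and BTC. The 5 mesenchymal markers summed to 3351 FPKM untreated and 1410 after DAC, a sum that is mostly VIM (3066 and 1134 FPKM). Of the 5, 2 were called lower (VIM and ZEB1) and 2 higher, FN1 from 39.8 to 111.3 FPKM and SPARC from 2.09 to 11.3 FPKM. The 6 luminal epithelial markers summed to 8.72 and 12.1 FPKM, of which 2 reached 1 FPKM (EPCAM and GATA3) and CDH1 stood at 0.179 FPKM after DAC. None of the 4 blood cell markers reached 1 FPKM, and they summed to 0.0781 and 1.13 FPKM. The part of these shifts in the change of the members was not tested.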

How the data were processed

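Polyadenylated RNA of the 6 libraries was prepared with the TruSeq kit, and whether the counting used strand is not given in the sources used here. The deposited FPKM values per RefSeq transcript were made by the authors with Cuffdiff (Galaxy) from reads that TopHat2 had aligned to hg19. Neither tool's version, nor the library scaling Cuffdiff applied, is given in the sources used here. The deposited table of MDA-MB-231 has the FPKM of each library with Cuffdiff's bounds and the length of each transcript, and that of HMLER has 1 FPKM per condition merged over 2 libraries. The HMLER table also holds the authors' fold changes, test statistics, p-values and q-values, which were not used. Every column of FPKM was assigned to a sample or a group by its name.

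From these values the transcripts of a symbol were summed, and ratios were taken without a pseudocount (threshold 2, filter 1 FPKM in at least 1 library) and log2 changes with a pseudocount of 1 FPKM, which understates the change of low genes. The value of 1 fragment was found from the low values of symbols with a single transcript, with 204 bases taken off the length: 1329 untreated and 1580 DAC-treated values were tested, of which 100% lay within 0.1 of a whole fragment, where chance gives 20%. No count test was run, since each condition of MDA-MB-231 is 1 library and HMLER has merged values. The fold steps were tested on simulated data. The members and lists were chosen with earlier results of these data known.

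The genes named are the 10 members, the 5 other family genes and, of each list, the genes past the 2-fold threshold in MDA-MB-231, those in the HMLER table and the one with the highest level, plus the 3 symbols nearest to ERBB3, which had the largest smaller log2 change of the 2 lines among the members. The neighbours on chromosome 4 and the ADAM17 value were added after values were seen. Member loci come from the MDA-MB-231 table, with 1 added to the start, which counts from 0. Promoter windows come from RefSeq (GRCh38.p14), with a window used for 8 of the 10 members, and exons from the GENCODE annotation lifted to GRCh37. Member windows on chromosome 8, where NRG1 lies, were left out. For a symbol with several windows the 5′-most was kept. Both strands of a CG read the same, so each was counted once. Alternatives were the largest transcript alone, other filters, a pseudocount of 0.1 FPKM, division by the median ratio, status OK only and bounds that do not overlap. The use of any transcript, and of the bounds for pathway genes, were chosen after seeing the data. The software was pandas 2.3.3 and numpy 2.4.6 for the tables, scipy 1.17.1 for the intervals and matplotlib 3.10.9 for the figures, under Python 3.11.15.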

Additional observations from a re-analysis of the deposited data

Results flagged for a closer look

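For 2 members and 4 feedback inhibitors the value in MDA-MB-231 was lower after DAC while the gene is listed as higher in HMLER. Of all 1362 symbols listed there that reached 1 FPKM in MDA-MB-231, 25.6% had a ratio under 1. The difference between the lines was not tested for any of them, since each line has 1 value per condition. The DAC/untreated ratio in MDA-MB-231 was 0.606 for HBEGF, beside 7.89 in HMLER, and 0.900 for NRG1, beside 5.24. It was 0.570 for SPRY4 (2.81 in HMLER), 0.972 for SPRED2 (4.06), 0.875 for SOCS5 (2.42) and 0.706 for DUSP5 (3.53). When only the transcripts listed in HMLER were taken, the ratio in MDA-MB-231 was 0.918 for NRG1, and it was above 1 for SPRY4 (1.15), SPRED2 (1.94) and SOCS5 (1.69). HBEGF and DUSP5 have a single transcript in the MDA-MB-231 table. Divided by the median ratio over the 11292 symbols that reached 1 FPKM in each library, the MDA-MB-231 value stayed under 1 for HBEGF (0.664), NRG1 (0.987), SPRY4 (0.625), SOCS5 (0.959) and DUSP5 (0.774), and came to 1.07 for SPRED2. Scaling by the FPKM sums (589238 untreated and 480455 after DAC), which differ more, was not tried. The direction is thus not settled for values near 1, such as those of NRG1 and SOCS5.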

How the results depend on the processing

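Of the 10 members, 2 were called higher in MDA-MB-231 (ERBB3 and BTC) and 0 lower. With the largest transcript alone 4 were higher (ERBB3, TGFA, BTC and EPGN), and with any transcript 4 were higher (the same genes) and 2 lower (TGFA and NRG1). With 1 FPKM required in both libraries, or 5 FPKM in at least 1, no member was called higher, and the number higher in both lines went from 2 to 0, since ERBB3 and BTC lie under 1 FPKM untreated and under 5 FPKM in both libraries. With bounds that do not overlap 1 was higher (TGFA). The number listed in HMLER went from 6 to 3 (AREG, HBEGF and NRG1) with 5 FPKM required after DAC. Of the pathway genes 4 were higher and 3 lower, and with any transcript 10 and 8. The share of all symbols was not counted for any transcript, where a gene with many transcripts can pass by each of them. Nor was it counted for the HMLER listing at 5 FPKM, so these counts have no background. The log2 change of NRG1 turned from -0.15 to 0.030 with its largest transcript. The other alternatives left these counts within 1.5 times, and the log2 changes of the other 9 members kept their direction. With the largest transcript the log2 change of ERBB3 was 0.98 (1.57 for the sum), of TGFA 2.25 (0.54) and of EPGN 0.70 (0.12), and with a pseudocount of 0.1 FPKM that of ERBB3 was 2.57, of AREG 2.38 (0.73 with 1 FPKM) and of BTC 3.44 (1.70). Division by the median ratio gave 0.23 for ERBB2 (0.10), 0.21 for EPGN and -0.02 for NRG1. Over all symbols 1350 were higher and 604 lower. These counts were 1428 and 726 of 12396 with the largest transcript, 494 and 466 with 1 FPKM in both libraries, 465 and 453 with 5 FPKM, 5193 and 1080 without a filter, 863 and 410 with a pseudocount in the ratio, and 1582 and 446 after division by the median ratio. No paired analysis was possible because replicates of HMLER are merged and each condition of MDA-MB-231 is 1 library, and for the same reason no replicate could be left out. Depth limited AREG (3 and 34 fragments) and BTC (8 and 133 fragments) most.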
